A study of Mus musculus with 6 samples.

Results

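Histone genes were followed in mouse CD4+ T cells given tunicamycin or vehicle, with the replication-dependent genes set against the replacement genes. A gene was taken where its mouse symbol opened with Hist and a cluster number from 1 to 4, or with the names of single histone genes such as H1f and H2af, and pseudogenes marked as such in the symbol were left out. This gave 77 of the 13685 rows of the table. Of these, 65 were replication-dependent genes of the clusters Hist1 to Hist4, 9 were replacement genes, and 3 were testis copies that lie inside a cluster (Hist1h1t, Hist1h2aa and Hist1h2ba). One of the 65 (Hist1h2aj) is annotated as an unprocessed pseudogene and had 0 counts. The symbol rule also matches 6 annotated genes that were not analysed here: H1foo, H2afv, H2afy, H2afz, H3f3a and H3f3b.

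The treated group was wild-type (WT) C57BL/6 cells cultured for 4 h with tunicamycin at 0.15 µg/mL (3 libraries), and the control group was WT C57BL/6 cells cultured with vehicle (3 libraries). Both groups were CD4+ cells taken from the spleen and the mesenteric lymph nodes, without the CD25+ regulatory fraction, and plated at 1000000 cells per well. The age of the mice was not given in the labels. The sample titles describe the controls as having had no treatment, while the descriptions and protocol say vehicle. Because the labels describe libraries 1 to 3 as technical replicates, each p and SD below covers the spread among libraries only. The number of animals behind them was not given in the labels.

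Tunicamycin blocks the first step of N-linked protein glycosylation and is used to load the endoplasmic reticulum with misfolded protein. Replication-dependent histones package newly made DNA: their genes lie in clusters, are transcribed mainly in S phase, and give messages that normally end just after a conserved stem-loop and carry no poly(A) tail. Replacement histones are made throughout the cell cycle from separate genes with ordinary polyadenylated messages, so they are the main histone transcripts of cells that do not divide. Some clustered histone genes also give a longer, polyadenylated message in resting or differentiated cells, by reading past the stem-loop to a distal poly(A) signal. Libraries here came from an mRNA-seq kit, and the measured level of a replication-dependent gene therefore depends on which of its messages the kit captured as well as on how much was made.

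Stem-loop sequences are shown first, for some of the histone genes whose transcripts carry the stem-loop letters. They were read on the sense strand from GENCODE M21 transcripts, and positions are on GRCm38, the build of that annotation. In the stem-loops, capitals mark the 16 bases that match GGNNCTTTTNAGNGCC, a stem of 6 bases, a loop of 4 and the returning stem, with 5 bases shown on each side.

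Hist3h2a (chr11:58955167-58955192, + strand): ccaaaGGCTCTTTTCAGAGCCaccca
Hist1h1c (chr13:23739507-23739532, + strand): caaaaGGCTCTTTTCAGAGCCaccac
Hist2h2aa1 (chr3:96246027-96246052, + strand): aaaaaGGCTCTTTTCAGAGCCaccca
Hist2h2aa2 (chr3:96239779-96239804, − strand): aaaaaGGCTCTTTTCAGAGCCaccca
Hist3h2ba (chr11:58949344-58949369, + strand): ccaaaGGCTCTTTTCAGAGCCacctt
Hist1h2be (chr13:23585526-23585551, − strand): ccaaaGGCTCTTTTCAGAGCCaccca
Hist2h4 (chr3:96262934-96262959, − strand): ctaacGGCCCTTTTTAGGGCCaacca
Hist1h4i (chr13:22040961-22040986, − strand): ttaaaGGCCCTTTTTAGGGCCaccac
Hist4h4 (chr6:136803993-136804018, − strand): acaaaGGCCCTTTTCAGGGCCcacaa
H2afx (chr9:44335235-44335260, + strand): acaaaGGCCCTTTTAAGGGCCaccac

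All 10 sites lie in the 3′ untranslated region of their gene. Hist2h2aa1 and Hist2h2aa2, a pair of H2A genes on opposite strands of chromosome 3, have only 35 bases after the stem-loop in the annotated transcript. The transcript of Hist3h2a continues for 1643 bases beyond it, that of Hist1h2be for 1861, that of Hist2h4 for 1257 and that of Hist1h1c for 840. H2afx, counted here as a replacement gene, carries the stem-loop of the clustered genes and continues for 822 bases. Over all 77 rows, 42 had the stem-loop letters in the transcript used, against 0.085% of the 58797 protein-coding transcripts of the annotation. The stem was GGCTCT in 32 of these rows, in the H1, H2A, H2B and H3 families, and GGCCCT in 10 rows, which were 9 H4 genes and H2afx.

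Poly(A) signal letters near the end of the longer transcripts are shown next. Capitals mark AATAAA or ATTAAA within the last 50 bases of the transcript.

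Hist3h2a (chr11:58956789-58956816, + strand): atatgcccAATAAAataagagtacgtgt
Hist2h2be (chr3:96223709-96223736, + strand): ttattattAATAAAgttaccgattagtt
Hist1h1c (chr13:23740334-23740361, + strand): atgcttctAATAAAaagcgtttagtttt
Hist2h4 (chr3:96261695-96261722, − strand): atacataaAATAAAatcttaaaaacaac
Hist1h2be (chr13:23583670-23583697, − strand): tgttccttATTAAAgcattcctgattga
H2afx (chr9:44336035-44336062, + strand): ctaattttATTAAAggatcgtttggttt
H2afj (chr6:136810043-136810070, + strand): aaaggacaAATAAAgaatatattacaaa
H1f0 (chr15:79030475-79030502, + strand): aactttaaAATAAAactggaaaggaaaa

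Hist2h2be has this signal but no stem-loop with exactly the letters searched, and Hist1h2bc has neither. In all protein-coding transcripts of the annotation, 50.2% have one of these 2 hexamers in the last 50 bases. A match describes the annotated letters and not which end was used in these cells.

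The table held estimated counts per gene and TPM, a level corrected for transcript length and for the size of the library. Summed counts were 10584276, 11211270 and 10868816 in the tunicamycin libraries, against 7412151, 7618385 and 9495725 in the vehicle libraries. CPM values below are counts scaled to the summed counts of the genes kept by edgeR's filter on low counts, with TMM factors. These factors correct for a few genes taking up much of a library. Of 18 T cell markers, 9 had a row, led by Il7r, Trbc2 and Cd3e, and their summed level was 4413 to 4711 TPM in tunicamycin libraries and 4266 to 4652 TPM in vehicle libraries; Cd4 was not analysed here. Cd8b1, of the CD8 list, was at 10.5 to 11.9 TPM with tunicamycin and 9.47 to 10.8 TPM with vehicle, and the B cell markers with a row, led by Cd79a, summed to at most 1.20 TPM with tunicamycin and 1.22 TPM with vehicle. Plasma cell genes (Jchain, Igha and Igkc among them) varied widely inside both groups, over 53.0 to 453 TPM with tunicamycin and 59.6 to 428 TPM with vehicle. Their sums were alike in libraries of the same number, at 546, 1091 and 140 CPM in tunicamycin libraries 1, 2 and 3 and 514, 1088 and 151 CPM in vehicle libraries 1, 2 and 3. Summed NK cell markers (5 of 8 with a row, led by Prf1, Gzma and Gzmb) were at 11.9 to 18.5 TPM with tunicamycin and 10.3 to 11.7 TPM with vehicle. Macrophage markers (4 of 8, led by Lyz2) were at 6.30 to 11.9 TPM with tunicamycin and 3.92 to 12.6 TPM with vehicle, and erythroid and platelet markers (7 of 10) at 2.31 to 7.77 TPM with tunicamycin and 3.28 to 12.4 TPM with vehicle. Neutrophil markers (2 of 5, Ly6g at 0) were at 0.212 to 0.891 TPM with tunicamycin and 0 to 1.33 TPM with vehicle, and Il2ra, of the regulatory T cell list, was at 7.74 to 14.1 TPM with tunicamycin and 6.87 to 8.41 TPM with vehicle. The part of these other cells in the histone values was not tested.

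No histone gene passed the test for a difference between tunicamycin and vehicle. A gene was tested where edgeR's filter on low counts kept it, and called where the Benjamini-Hochberg adjusted p of edgeR's quasi-likelihood test, over all 3613 genes tested, was under 0.05. The filter kept 23 of the 77 histone rows: 20 replication-dependent genes and the replacement genes H2afj, H2afx and H1f0. None of the 23 was called, against a background of 0.083% of all genes tested (3 genes). At an unadjusted p under 0.05 there was 1 histone gene of 23, Hist1h2be, against 6.42% of all genes. DESeq2 and limma on log2(TPM + 1) also called 0 of the 23, with backgrounds of 0.516% and 0.0277%. The median log2 fold change, tunicamycin over vehicle, was -0.10 over the 20 replication-dependent genes, with a range of -1.41 to 2.33. It was 0.02 over the 3 replacement genes, with a range of -0.13 to 0.12, and 0.00 over all genes tested. Of the 23 histone genes, 10 had a log2 fold change above 0, against 50.1% of all genes.

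How small a difference could have been seen varied greatly between the genes. The 95% interval of the fold change lay inside a 2-fold change either way for 6 of the 20 replication-dependent genes and for 3 of the 3 replacement genes, against 64.6% of all genes tested. For the 8 histone genes with a mean of at least 20 CPM (H2afj, H2afx, Hist3h2a, H1f0, Hist2h2be, Hist1h1c, Hist2h2aa1 and Hist1h2bc), the half-width of the interval was 0.20 to 0.61 on the log2 scale. The widest intervals among the other genes were -4.45 to 2.76, for Hist1h4n, and -2.60 to 4.60, for Hist2h2aa2.

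**Figure D1:**
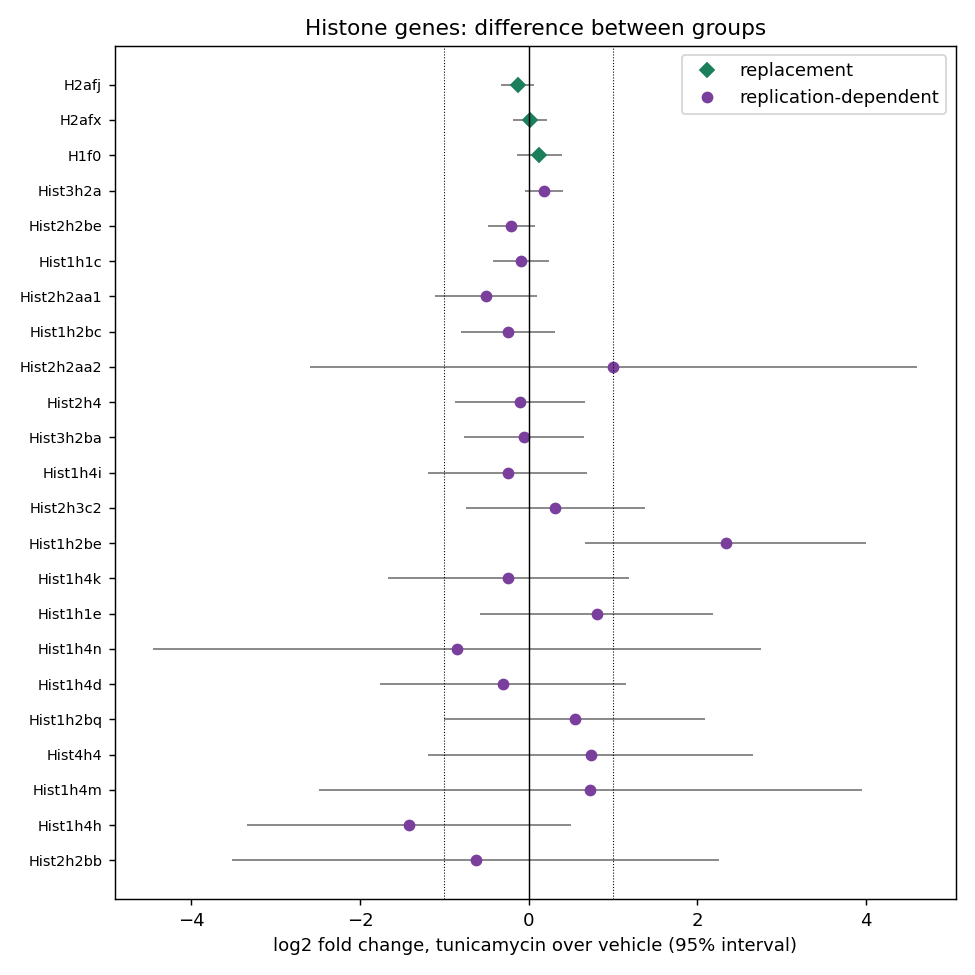
Log2 fold change of each tested histone gene, tunicamycin over vehicle (x axis), with the 95% interval of edgeR's quasi-likelihood fit as a bar; genes run down the page and colour separates replication-dependent genes from replacement genes. The replacement genes lie between -0.13 and 0.12, and of the replication-dependent genes only the interval of Hist1h2be, from 0.67 to 4.00, excludes 0.

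The tested replacement genes were among the best measured histone genes. H2afj (ENSMUSG00000060032, chr6:136808244-136810074), which encodes an H2A variant and was the most abundant histone row, had 308, 273 and 317 CPM with tunicamycin and 328, 288 and 366 CPM with vehicle. The groups overlapped, and the log2 fold change was -0.13 with an SE of 0.09, a 95% interval of -0.33 to 0.07 and an adjusted p of 0.89 in edgeR. H2afx (ENSMUSG00000049932, chr9:44334694-44336077), the H2A variant phosphorylated around DNA double-strand breaks, had 105, 103 and 104 CPM with tunicamycin and 105, 93.8 and 110 CPM with vehicle. The tunicamycin libraries lay inside the range of the vehicle libraries; the log2 fold change was 0.02 with an interval of -0.18 to 0.22. H1f0 (ENSMUSG00000096210, chr15:79028450-79030504), the linker histone that accumulates in cells that have stopped dividing, had 60.6, 61.3 and 62.2 CPM with tunicamycin and 50.8, 63.8 and 54.5 CPM with vehicle. Its groups overlapped as well, with a log2 fold change of 0.12 and an interval of -0.14 to 0.39.

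For H2afx and H1f0 the deposited TPM values differed from the CPM values in overlap. Over all genes tested, the median log2 fold change was 0.046 with limma on log2(TPM + 1). H2afx was at 20.3, 20.2 and 20.7 TPM with tunicamycin and at 18.3, 15.9 and 18.1 TPM with vehicle, so the groups did not overlap. H1f0 was at 8.56, 8.90 and 8.84 TPM with tunicamycin and 6.85, 8.45 and 7.02 TPM with vehicle, again without overlap. TPM divides by an effective length estimated per library, and for H2afx the length implied by the deposited counts and TPM was lower with tunicamycin by a log2 difference of -0.16, at percentile 5.68 of 3399 tested genes. For H1f0 that difference was -0.07. With these lengths entered in the count model, the log2 fold changes were 0.17 for H2afx and 0.18 for H1f0, and limma on log2(TPM + 1) gave 0.22 for each; none was called. Of the 23 histone genes, 3 had TPM groups that did not overlap, all higher with tunicamycin (Hist3h2a, H2afx and H1f0), against 10.4% of all genes higher in this way. H2afj, at 93.4, 74.9 and 81.6 TPM with tunicamycin and 89.1, 76.9 and 99.2 TPM with vehicle, overlapped on this scale too.

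Among single replication-dependent rows, the H2A gene Hist3h2a (ENSMUSG00000078851, chr11:58954685-58956830) had the highest level. It had 83.2, 76.0 and 74.8 CPM with tunicamycin and 64.9, 68.8 and 72.4 CPM with vehicle, or 78.0 ± 4.55 and 68.7 ± 3.76 CPM (mean ± SD, n = 3 each). Every tunicamycin library was above every vehicle library, and it was the 1 histone gene of 23 with CPM groups that did not overlap, against 12.6% of all genes in either direction, 6.62% higher and 5.95% lower with tunicamycin. The log2 fold change was 0.18 with an SE of 0.11, an interval of -0.05 to 0.41 and an adjusted p of 0.84 in edgeR, so the difference did not pass. In TPM it was at 16.2, 15.0 and 14.7 with tunicamycin and 12.7, 13.2 and 13.5 with vehicle. The whole gene, 2146 bases, lies inside the span of Trim17 on the same strand, so the assignment of reads there is uncertain. Trim17 was not analysed here.

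**Figure D2:**
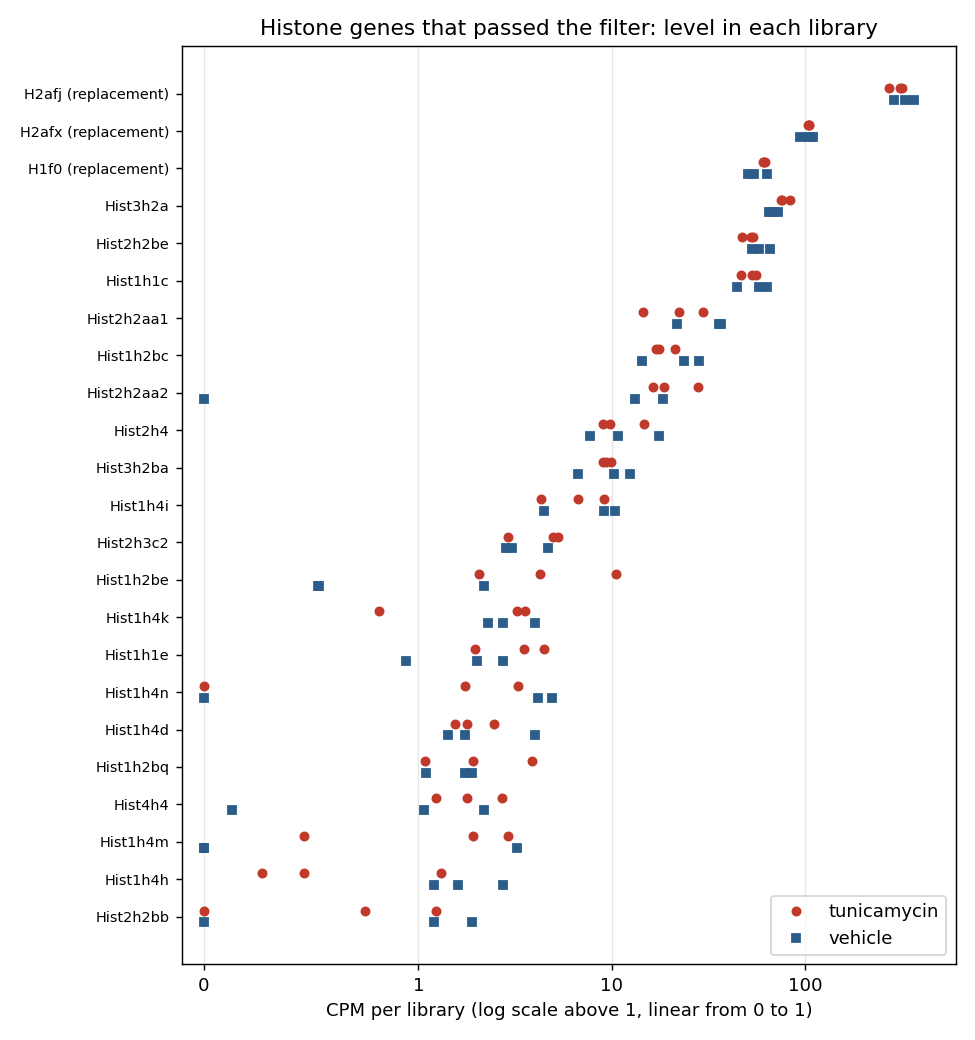
CPM of each tested histone gene in every library (log scale above 1, linear below), with tunicamycin libraries above vehicle libraries and 1 point per library. The ranges overlap for the other genes, and only the Hist3h2a libraries separate, at 74.8 to 83.2 CPM with tunicamycin and 64.9 to 72.4 CPM with vehicle.

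Linker histones bind the DNA between nucleosomes. Hist1h1c (ENSMUSG00000036181, chr13:23738808-23740367), the H1.2 gene, had 46.4, 55.7 and 52.9 CPM with tunicamycin and 63.5, 57.5 and 44.4 CPM with vehicle. The vehicle libraries spanned the whole tunicamycin range, and the log2 fold change was -0.09 with an interval of -0.42 to 0.24. Hist1h1e, the H1.4 gene, was far lower, at 1.97, 4.47 and 3.53 CPM with tunicamycin and 0.941, 2.00 and 2.72 CPM with vehicle. Its log2 fold change of 0.81 had an interval of -0.57 to 2.18 and an adjusted p of 0.89 in edgeR.

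H2A genes other than Hist3h2a were represented by the pair Hist2h2aa1 (ENSMUSG00000064220, chr3:96245497-96246082) and Hist2h2aa2 (ENSMUSG00000063954, chr3:96239749-96240276). Hist2h2aa1 had 14.5, 22.2 and 29.5 CPM with tunicamycin and 36.6, 21.7 and 35.7 CPM with vehicle, and its log2 fold change was -0.51 with an interval of -1.11 to 0.10. Hist2h2aa2 had 28.0, 18.7 and 16.3 CPM with tunicamycin and 13.2, 18.4 and 0 CPM with vehicle, and its log2 fold change was 1.00 with an interval of -2.60 to 4.60, and 0.41 without the third vehicle library. The 2 genes thus leaned opposite ways, and neither passed. The annotated transcript of Hist2h2aa2, 528 bases, is identical over its whole length to the last 528 bases of the Hist2h2aa1 transcript, so how reads were divided between them is uncertain. On the same strand, 529 bases of Hist2h2aa1 also lie inside the span of Gm20634. Reads there could belong to Gm20634, which is not part of the sum below. Summed over the pair, a choice made after the values were seen, the levels were 42.4, 40.9 and 45.8 CPM with tunicamycin and 49.7, 40.1 and 35.7 CPM with vehicle. Fitted as 1 gene, the pair had a log2 fold change of 0.04, with an adjusted p of 0.99 in edgeR. In TPM the pair summed to 22.3, 20.9 and 23.3 with tunicamycin and 22.6, 18.4 and 14.6 with vehicle. The groups overlapped on that scale, with a log2 ratio of means of 0.26.

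H2B genes were tested at high and at low levels. Hist2h2be (ENSMUSG00000068854, chr3:96221119-96223738) had 52.4, 53.9 and 47.1 CPM with tunicamycin and 65.9, 57.7 and 53.2 CPM with vehicle. Only the highest tunicamycin and lowest vehicle libraries crossed, and the log2 fold change was -0.20 with an interval of -0.48 to 0.08 and an adjusted p of 0.85 in edgeR. Hist1h2bc (chr13:23684199-23692908) had 21.2, 17.5 and 17.0 CPM with tunicamycin and 23.5, 28.3 and 14.4 CPM with vehicle, with a log2 fold change of -0.24 and an interval of -0.80 to 0.31. Hist3h2ba, at 9.39, 9.02 and 9.87 CPM with tunicamycin and 12.5, 6.67 and 10.2 CPM with vehicle, had a log2 fold change of -0.06. Hist1h2bq was at 1.09 to 3.85 CPM with tunicamycin and 1.09 to 1.88 CPM with vehicle. Hist2h2bb was at 0 to 1.23 CPM with tunicamycin and 0 to 1.88 CPM with vehicle. The log2 fold changes of Hist1h2bq and Hist2h2bb were 0.54 and -0.63, with intervals that include 0. All 381 bases of Hist2h2bb lie inside the span of Gm42743 on the same strand, and reads there could belong to either.

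Hist1h2be (ENSMUSG00000047246, chr13:23583670-23621124), also an H2B gene, stood farthest from 0. Its estimated counts were 22.3, 120 and 47.4 with tunicamycin and 4.10, 4.00 and 20.4 with vehicle, which is 2.07, 10.5 and 4.25 CPM with tunicamycin and 0.538, 0.533 and 2.18 CPM with vehicle. The groups overlapped, since the third vehicle library lay above the first tunicamycin library, and the SD of the tunicamycin libraries was 4.38 CPM around a mean of 5.61 CPM. The log2 fold change was 2.33 with an SE of 0.76, an interval of 0.67 to 4.00, an unadjusted p of 0.010 and an adjusted p of 0.53 in edgeR, so it was not called. Without the second tunicamycin library the log2 fold change was 1.52. Over 17 alternative settings the adjusted p was 0.19 to 1.00 and passed in none. The annotated gene shares 496 bases with Hist1h1e on the same strand, and reads there could belong to either.

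H3 and H4 form the core tetramer of the nucleosome, and their clustered genes were low. The H3 replacement genes H3f3a and H3f3b were not analysed here. The only tested H3 gene, Hist2h3c2, had 4.98, 5.25 and 2.90 CPM with tunicamycin and 2.82, 4.67 and 3.05 CPM with vehicle, a log2 fold change of 0.32 with an interval of -0.74 to 1.38. Hist2h4, the H4 row with the most counts, had 9.01, 14.7 and 9.78 CPM with tunicamycin and 10.8, 17.6 and 7.73 CPM with vehicle, a log2 fold change of -0.10 with an interval of -0.87 to 0.67. Hist1h4i had 9.11, 4.29 and 6.70 CPM with tunicamycin and 10.4, 9.07 and 4.47 CPM with vehicle, a log2 fold change of -0.25 with an interval of -1.19 to 0.69. In each of these genes the libraries of the groups were interleaved. Hist1h4k (0.815 to 3.57 CPM with tunicamycin, 2.29 to 4.00 CPM with vehicle), Hist1h4d (1.54 to 2.45 CPM with tunicamycin, 1.42 to 4.00 CPM with vehicle) and Hist1h4h (0.272 to 1.31 CPM with tunicamycin, 1.21 to 2.72 CPM with vehicle) had log2 fold changes of -0.24, -0.30 and -1.41. Hist4h4 (1.23 to 2.72 CPM with tunicamycin, 0.134 to 2.18 CPM with vehicle) was at a log2 fold change of 0.73. Hist1h4m and Hist1h4n, at 0.73 and -0.85, each had at least 1 library at 0 counts and intervals of -2.48 to 3.95 and -4.45 to 2.76. Single libraries moved both: without the third vehicle library Hist1h4m was at 0.13 and Hist1h4n at -0.30, and without the first tunicamycin library they were at 1.17 and -1.77. With vehicle, Hist1h4m had counts only in the first library. The interval of each of these 6 low H4 genes included 0, and the lowest adjusted p among them was 0.85 in edgeR, for Hist1h4h.

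Histone rows under the filter held few reads. Of the 54 untested rows, 45 were replication-dependent, 6 were replacement and 3 were testis copies. The 45 had a median of 13.0 counts summed over the 6 libraries, and the highest were Hist2h2ac with 48.5, Hist1h4a with 47.4, Hist1h2ac with 44.5 and Hist1h2ai with 43.0. H1fx, a linker histone, was the only untested replacement row with counts, 18 in all, and Hist1h2aa the only testis copy with counts, 2 in all. In every library 14 rows were at 0: 7 replication-dependent genes, the replacement genes H2afy2, H1fnt, H2afb1, H2afb2 and H2afb3, and 2 testis copies. A count of 0 allows up to 3 counts, which is 0.263 to 0.403 CPM per library; these floors cover counting error only.

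Summed over each class, histone messages differed between the groups by less than the spread between libraries. The 65 replication-dependent rows summed to 310, 316 and 295 CPM with tunicamycin and 329, 326 and 279 CPM with vehicle, or 307 ± 10.8 and 311 ± 28.4 CPM (mean ± SD, n = 3 each), a log2 ratio of means of -0.02. The 9 replacement rows summed to 473, 438 and 484 CPM with tunicamycin and 483, 446 and 530 CPM with vehicle, or 465 ± 23.8 and 487 ± 42.3 CPM, a log2 ratio of -0.07. In both classes the vehicle range enclosed or overlapped the tunicamycin range. Per unit length, replication-dependent rows summed to 87.2 ± 4.12 TPM with tunicamycin and 83.1 ± 10.5 TPM with vehicle, and replacement rows to 113 ± 9.14 TPM with tunicamycin and 113 ± 11.5 TPM with vehicle. Replication-dependent rows made up 42.6%, 45.9% and 42.7% of the TPM summed over both classes with tunicamycin, against 44.3%, 46.3% and 36.4% with vehicle. The replacement genes H1foo, H2afv, H2afy, H2afz, H3f3a and H3f3b were not analysed here, so these are not shares of all histone message. In these bulk samples, fewer cells with a message and less of it per cell cannot be told apart.

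By family, the H2A rows were the only ones whose summed groups did not overlap. How often other sums separate in this way was not computed. Among single tested genes, 12.6% had CPM groups that did not overlap. The 18 replication-dependent H2A rows summed to 130, 121 and 124 CPM with tunicamycin and 118, 115 and 113 CPM with vehicle, a log2 ratio of 0.12. In TPM they summed to 41.5, 38.5 and 39.7 with tunicamycin and 37.5, 33.7 and 30.3 with vehicle, a log2 ratio of 0.24. The part of Hist3h2a in these sums differed by scale. Without it, a choice made after the values were seen, the other 17 H2A rows summed to 47.2, 44.7 and 49.2 CPM with tunicamycin and 53.0, 45.9 and 40.5 CPM with vehicle, a log2 ratio of 0.02. In TPM the same 17 rows summed to 25.4, 23.5 and 25.0 with tunicamycin and 24.8, 20.5 and 16.7 with vehicle, a log2 ratio of 0.25. On both scales the groups overlapped once Hist3h2a was left out. The 17 H2B rows summed to 89.3 ± 7.55 CPM with tunicamycin and 96.3 ± 12.3 CPM with vehicle, and the 13 H4 rows to 30.4 ± 2.92 CPM with tunicamycin and 34.9 ± 9.44 CPM with vehicle. The 5 H1 rows summed to 55.7 ± 6.36 CPM with tunicamycin and 57.8 ± 9.19 CPM with vehicle, and the 12 H3 rows to 6.53 ± 1.91 CPM with tunicamycin and 7.08 ± 2.30 CPM with vehicle. In these 4 families the groups overlapped. By cluster, Hist1 on chromosome 13 (52 rows) summed to 106 ± 6.42 CPM with tunicamycin and 113 ± 18.8 CPM with vehicle, and Hist2 on chromosome 3 (10 rows) to 112 ± 4.90 CPM with tunicamycin and 119 ± 16.2 CPM with vehicle. Hist3 on chromosome 11 (2 rows, Hist3h2a and Hist3h2ba) summed to 87.4 ± 4.48 CPM with tunicamycin and 78.5 ± 3.72 CPM with vehicle. The Hist3 sums, which include Hist3h2a, did not overlap either, at 84.6 to 92.6 CPM with tunicamycin and 75.5 to 82.7 CPM with vehicle.

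**Figure D3:**
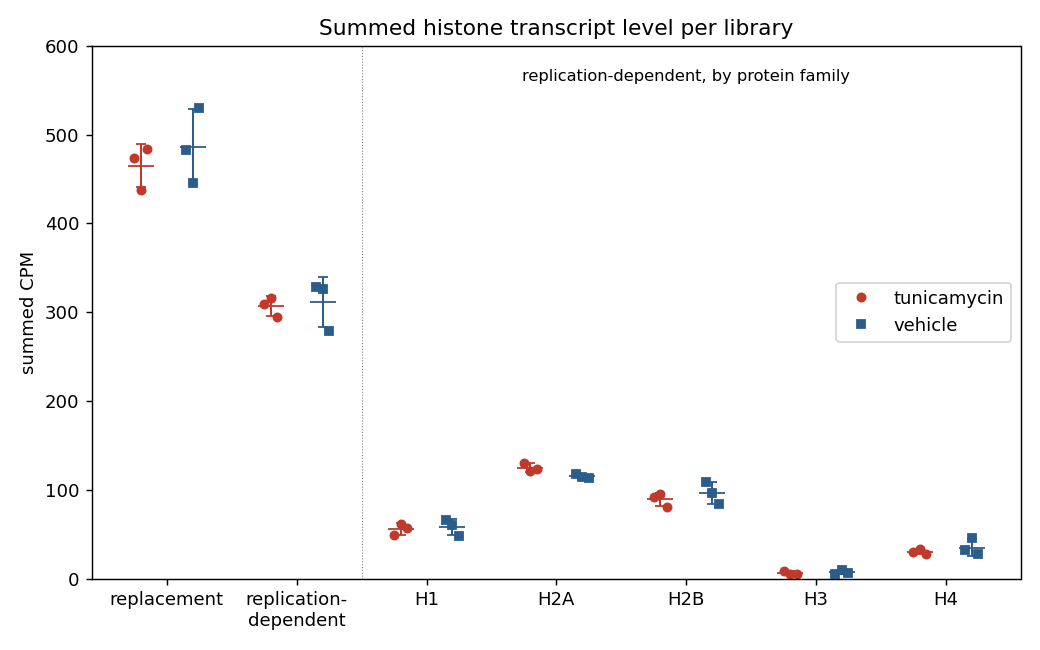
Summed CPM of the replication-dependent rows of each histone family and of the replacement rows, in every library, with tunicamycin left of vehicle. Lines mark the group mean with the SD of 3 libraries as an error bar. The H2A sums, at 121 to 130 CPM with tunicamycin and 113 to 118 CPM with vehicle, do not overlap, and the other sums do. Without Hist3h2a, which is not drawn apart, the H2A sums overlap as well.

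A few rows held most replication-dependent counts. The top 6 rows by counts (Hist3h2a, Hist2h2be, Hist1h1c, Hist2h2aa1, Hist1h2bc and Hist2h2aa2) held 79.0% of the counts of all 65. The 16 rows with a poly(A) signal in the last 50 bases of a transcript held 71.3% of the counts and 53.0% of the TPM, which corrects for their length. Of these 16 rows 10 passed the filter, and of the 49 rows without the signal also 10. Their median levels over the 6 libraries were 0.568 TPM with the signal and 0.140 TPM without it. Of the rows with the stem-loop letters 15 of 41 passed the filter, against 5 of 24 without them. In 12 rows the annotated transcript has no bases after a stop codon, counting the pseudogene Hist1h2aj, which has no annotated stop codon. Of these 12 rows, 2 passed the filter. Hist1h2af and Hist1h2ah have only 1 and 2 bases after the stop codon. All of these rows count as without the letters and without the signal, since their annotation ends before either could lie. Those 41 rows have the letters in any annotated transcript, and 40 of them have the letters in the transcript used. Of the 40, 10 of 20 passed where the transcript continued for over 100 bases, and 5 of 20 where it ended within 100 bases. These are descriptions of annotated transcripts, and the filter and the levels share the counts.

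**Figure D4:**
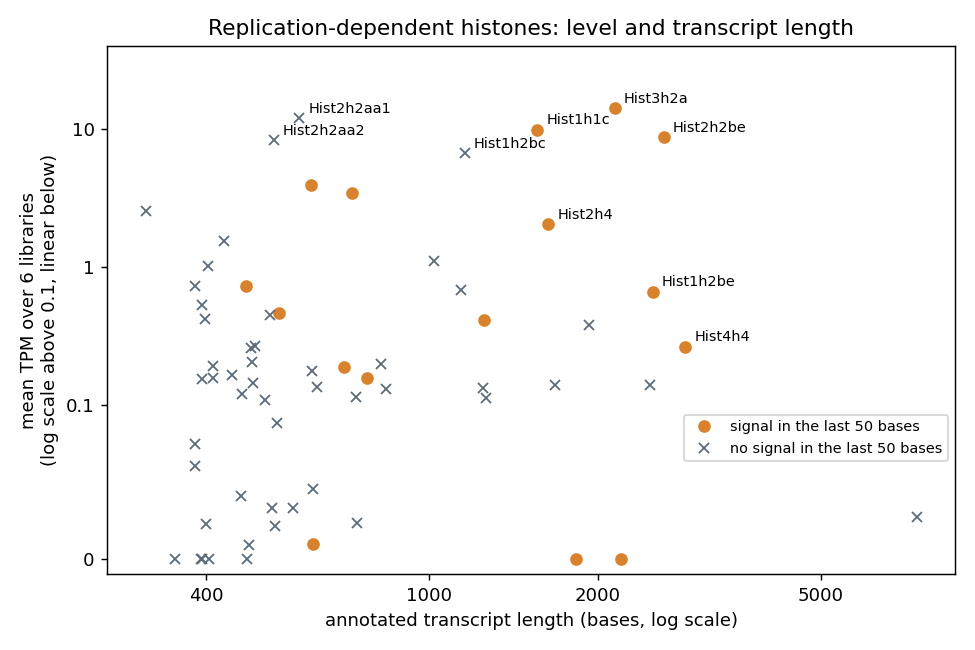
Mean TPM over the 6 libraries of each replication-dependent histone row (log scale above 0.1, linear below) against the length of its annotated transcript (bases, log scale); filled circles have a poly(A) signal in the last 50 bases and crosses have none. Hist3h2a, Hist1h1c and Hist2h2be combine a long transcript, the signal and 8.72 to 14.2 TPM, while Hist2h2aa1 and Hist2h2aa2 have at least 8.33 TPM with short transcripts and no signal.

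No listed gene of histone metabolism or S phase was called. Of 28 listed genes of histone transcription, 3′ end processing and decay, 9 had a row and were tested, and 0 were called in either direction, against backgrounds of 0.0554% of all genes called higher and 0.0277% called lower. At an unadjusted p under 0.05 there was 1, Cpsf1, which encodes a subunit of the cleavage and polyadenylation complex, at a log2 fold change of 0.17 with an interval of 0.02 to 0.32 and an adjusted p of 0.66 in edgeR. Upf1, a helicase of histone message decay, was at 0.01 with an interval of -0.10 to 0.11. Eri1, the exonuclease that trims the stem-loop end, was at -0.09 with an interval of -0.23 to 0.04. Ncbp1, of the nuclear cap-binding complex, was at -0.05 with an interval of -0.18 to 0.08. The list had a median log2 fold change of -0.05. Slbp, the stem-loop binding protein, was not analysed here.

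Of 43 listed histone chaperone and deposition genes, 9 were tested and 0 were called, with 0 at an unadjusted p under 0.05, against 0.083% and 6.42% of all genes. Supt16, a FACT subunit, was at a log2 fold change of -0.03, Supt6 at -0.04, Ubn1, of the HIRA complex, at -0.00 and Dnajc9 at -0.06. Of 49 listed genes of S phase and dividing cells, 10 were tested and 0 were called, with a median of 0.02. The replicative helicase gene Mcm5 was the 1 with an unadjusted p under 0.05, at 0.19 with an interval of 0.01 to 0.38 and an adjusted p of 0.71 in edgeR. Mcm4 was at 0.04, Mcm2 at -0.10 and the licensing factor gene Cdt1 at -0.04. The summed level of the list was 1314 to 1362 CPM with tunicamycin and 1295 to 1380 CPM with vehicle, which overlap. In TPM it was 128 to 136 with tunicamycin and 118 to 126 with vehicle, which do not overlap. On that scale 10.4% of all genes tested were higher with tunicamycin without overlap. The median log2 fold change of all genes tested was 0.05 with limma on log2(TPM + 1), against 0.00 in the count fit. Of 67 listed genes of histone modification, 4 were tested (Nsd1 at 0.02, Kdm6b at -0.09, Rnf40 at -0.03 and Prmt1 at 0.02), and 0 were called.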

How the data were processed

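The authors deposited estimated counts per gene, not scaled to depth, and TPM values for 6 libraries of 150 bp paired reads. Salmon, bcl2fastq, DESeq2 and the build GRCm39 are named, with no version or role, in the submitters' processing notes. Neither the transcript annotation nor any use of strand in counting is stated in the labels. Of 13685 rows, 13627 matched a symbol, and 6932 were at 0 in every library. The rows hold part of each library: the deposited TPM sum to 319120 to 332870 per library, so totals are not library depths. Of the estimated counts of histone rows above 0, 72.2% were not whole numbers (tolerance 0.01), against 44.9% elsewhere.

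Counts were rounded and fitted with edgeR 4.0.16 in R 4.3.3: filterByExpr, TMM factors, robust 2-sided quasi-likelihood test of tunicamycin over vehicle on all 3613 genes kept, Benjamini-Hochberg threshold 0.05, and 95% intervals. Alternatives used DESeq2 1.42.0, limma 3.58.1 on log2(TPM + 1) or log2(TPM + 0.1), and offsets from the effective lengths implied by count over TPM. Sums of CPM or TPM carry no test. Libraries of a group differed beyond counting noise, with a chi-square per degree of freedom of 15.9 to 35.8 between pairs of libraries. The labels give all samples the same batch.

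Every histone gene passing the filter is named. Of each list, members past the threshold and up to 4 others with the highest mean CPM are named, and of each marker list up to 3. The members, lists and tests were chosen with earlier results of these data known. Positions and sequences come from GENCODE M21 on GRCm38 and were not converted. Per gene, the transcript with a poly(A) signal was used, otherwise the longest.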

Additional observations from a re-analysis of the deposited data

How the results depend on the processing

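No histone gene was called under 18 alternative settings, and no member of the histone metabolism and S-phase lists under the 17 run for them. The lowest adjusted p of a histone gene was 0.19 (Hist1h2be, replicate block). The count of genes called over the whole table, 3, was 16 with no filter on low counts, 22 with DESeq2, 1 with limma on log2(TPM + 1) and 1 to 5 with 1 library left out. The median log2 fold change of replication-dependent genes, -0.10, was 0.030 with limma on log2(TPM + 0.1), and -0.25 to 0.085 with 1 library left out. That of replacement genes, 0.02, was -0.061 with DESeq2, 0.22 and 0.23 with limma on log2(TPM + 1) and log2(TPM + 0.1), 0.17 with effective-length offsets, and -0.039 to 0.069 with 1 library left out. The DESeq2 value also took in H1fx, which the filter had left out. Over all genes tested, the median was 0.00 in the main fit and 0.046 and 0.064 with limma on those TPM scales. The replicate numbers did not pair the libraries by the threshold used: the same-number correlations of deviations were 0.04, 0.19 and 0.11 for numbers 1, 2 and 3, though each library correlated best with its own number and plasma cell sums were alike within a number, so pairing is not settled. Between libraries of the same number, H2afj, Hist2h2be and Hist1h4h were lower with tunicamycin in 3 of 3. Hist3h2a, Hist1h2be, Hist1h1e, Hist4h4 and Hist2h2aa2 were higher in 3 of 3. For Hist2h2aa2 this rested on 18.7 against 18.4 CPM in number 2 and on 0 CPM in the third vehicle library. The share of all genes with the same direction in 3 of 3 was not computed, so these genes cannot be set apart from other genes. With the replicate block the log2 fold changes of H2afj and Hist2h2be were -0.125 and -0.20, with adjusted p of 0.40 and 0.64 in edgeR. That of Hist3h2a was 0.18, with an adjusted p of 0.64 in edgeR. With a replicate block 36 genes were called over the table; adding effective-length offsets to that block left 6, with a replacement median of 0.17.

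Of 391 histone gene values under these settings, 372 kept their direction and 19 reversed, in 9 genes. With limma on log2(TPM + 1) and log2(TPM + 0.1), Hist1h1c was at 0.021 and 0.024, Hist3h2ba at 0.079 and 0.11 and Hist2h4 at 0.015 and 0.036. Hist3h2ba was at 0.0066 with effective-length offsets and 0.046 with these and the replicate block, and Hist2h2aa1 at 0.041 with its copy added. With 1 library left out, ranges that crossed 0 were -0.23 to 0.021 for Hist1h1c, -0.27 to 0.15 for Hist3h2ba, -0.35 to 0.28 for Hist2h4, -0.056 to 0.88 for Hist1h2bq, -0.56 to 0.18 for Hist1h4k, -1.42 to 0.10 for Hist2h2bb, -0.039 to 0.069 for H2afx and -0.57 to 0.29 for Hist1h4d. The cause was not tested. Summing the Hist2h2aa copies and the left-out libraries of the summed levels were added after the data were seen.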
